A study of Mus musculus with 12 samples.

Results

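Rab GTPases were followed here in 3T3-L1 adipocytes after knockdown of Zfp407. The members were the rows of the expression table named by a single symbol made of Rab, a number and at most a letter or a further digit, with a mean over all libraries of at least 1 FPKM (fragments for each kilobase of a transcript, a level scaled to library size and corrected for length). Of 39248 rows, 53 carried such a symbol and 37 of these reached the minimum. The members nearest the limit were Rab36 with a mean of 1.67 FPKM and Rab12 with 3.38 FPKM. The highest of the 16 genes left outside were Rab39b with 0.568 FPKM and Rab20 with 0.532 FPKM. The table writes Rab29 as Rab7l1 and Rab1a as Rab1. Rab4b, Rab26 and Rab43 stand only in rows shared with other genes, and Rab4a was not analysed here.

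The cells were 3T3-L1, a mouse preadipocyte line, derived from 1 clone, that turns into fat-storing cells in culture. Differentiated cells were electroporated with 0.75 nmol of siRNA at day 2 after differentiation, with a control siRNA in 6 libraries and with 1 of 2 siRNAs against Zfp407, a zinc finger protein, in the other 6 libraries, 3 for each siRNA. Every library had its own electroporation, and no other agent or allele is named in the labels. The table does not mark which siRNA a knockdown library received, so the 6 knockdown libraries were treated as 1 arm. The spread behind all p-values is thus that of repeated electroporations in 1 line, and any difference between the siRNAs lies inside the knockdown arm.

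Rab proteins are small GTPases that mark the membranes of the cell. In the GTP-bound form they sit on a membrane and recruit effectors such as motors, tethers and coat adaptors, guanine nucleotide exchange factors (GEFs) load them with GTP, and GTPase-activating proteins (GAPs) end the active state. In fat and muscle cells they are best known for carrying the glucose transporter GLUT4 (Slc2a4) from an internal store to the plasma membrane after insulin, where the GAP Tbc1d4 (AS160) is held off by insulin signalling and its substrate Rab10 is then free to act.

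Zfp407 itself averaged 2.83 ± 0.178 FPKM (SD, n = 6) with control siRNA and 1.79 ± 0.208 FPKM (SD, n = 6) with Zfp407 siRNA, with no overlap between the arms. Slc2a4 averaged 102.9 ± 2.77 and 88.5 ± 8.19 FPKM, and its log2 fold change of -0.22 passed the test used throughout (limma adjusted p = 0.00853). That test was limma on log2(FPKM + 1), two-sided, with Benjamini-Hochberg adjustment over the 14706 rows with a mean of at least 1 FPKM and a threshold of 0.05. Fold changes are on that scale, knockdown relative to control, and understate changes of low genes. The authors' deposited table marks neither Zfp407 nor Slc2a4 as significant, with q-values of 0.0734 and 0.99999. Of 8 adipocyte markers 5 were lower with knockdown, where 24.8% of all tested rows were lower. The summed level of these markers ran from 15904 to 19852 FPKM in control and from 13998 to 18712 FPKM in knockdown libraries. Of 8 preadipocyte or fibroblast markers 7 were tested and 1 was lower, against the same 24.8% of all tested rows. The sums of these markers were 2239 to 2483 and 1836 to 2388 FPKM. Among macrophage markers Csf1r, Emr1 and Ptprc stayed below 0.1 FPKM, and the sums over the 5 rows found ran from 3.76 to 4.53 and from 3.29 to 4.56 FPKM. The highest of these rows was Cd14, with a mean of 3.41 FPKM in control libraries. Among endothelial markers Cdh5, Kdr and Tek stayed below 0.1 FPKM, with sums of 0.268 to 0.380 and 0.203 to 0.430 FPKM over 4 rows. Pecam1 was the highest of the 4, with a mean of 0.309 FPKM in control libraries. In bulk libraries fewer cells of a type and less RNA per cell cannot be told apart, and the part of the lower adipocyte markers in the values below was not tested.

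The 37 Rab transcripts ran in control cells from 1.64 FPKM for Rab36 to 243 FPKM for Rab7, and 29 of them averaged at least 10 FPKM over all libraries. In the plot of levels the arms of most genes overlap. The 5 highest genes in control cells were Rab7, Rab11a, Rab1, Rab14 and Rab34. Rab7, which drives the step from late endosome to lysosome, had a lowest, median and highest value of 214, 244 and 263 FPKM in control and of 231, 244 and 264 FPKM in knockdown libraries. Rab1, which acts between the endoplasmic reticulum (ER) and the Golgi, had 140.4, 147 and 169 FPKM in control and 139, 152 and 180.4 FPKM in knockdown libraries. The arms overlapped almost fully for both, and the fold changes did not pass the test (log2 0.02 with limma adjusted p = 0.788 for Rab7, and log2 0.02 with limma adjusted p = 0.852 for Rab1). Of the summed level of all members in control cells, early and recycling endosome Rabs made up 36.94%, ER and Golgi Rabs 27.09%, late endosome and lysosome Rabs 16.71% and exocytosis Rabs 10.01%. The sum over all members was 1977 ± 89.8 FPKM (SD, n = 6) in control and 1942 ± 91.1 FPKM (SD, n = 6) in knockdown libraries, ranges that overlapped. As a share of the FPKM of all protein-coding rows outside the mitochondrial genome it was 3.82 ± 0.048 per 1000 in control and 3.92 ± 0.113 per 1000 in knockdown libraries.

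**Figure D1:**
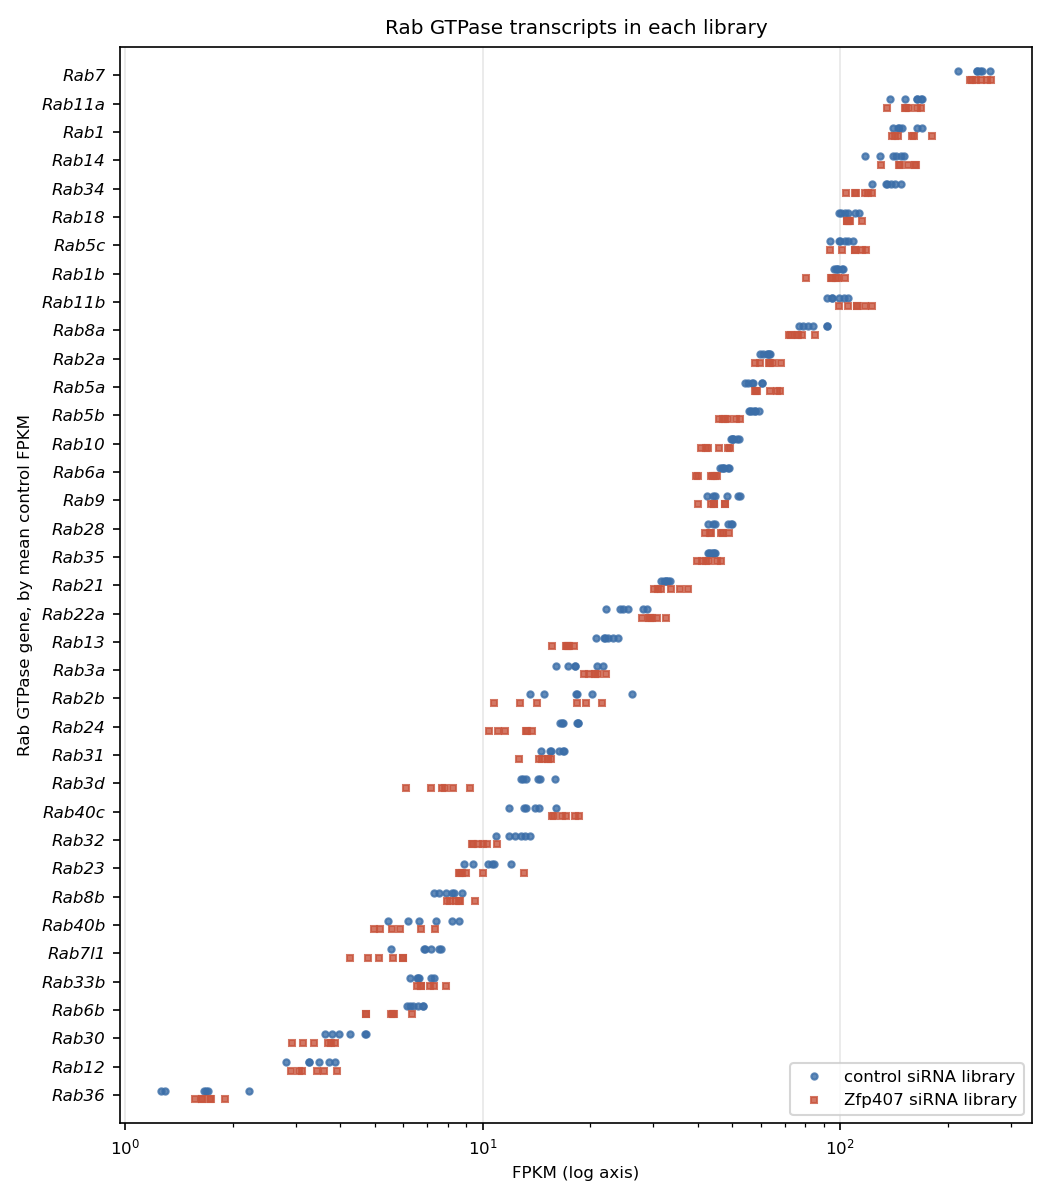
FPKM of each of the 37 Rab genes (rows, ordered by control mean) in each library, on a log axis. Circles are the 6 control libraries and squares the 6 Zfp407 siRNA libraries; the arms of Rab3d, Rab24 and Rab13 are apart, while Rab7 at the top overlaps between 214 and 264 FPKM.

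Of the 37 members, 11 were lower with knockdown, 3 were higher and 23 did not pass the test. That is 37.8% called, against 36.4% of all tested rows, with 24.8% of all rows lower and 11.6% higher, so the number of Rab genes called is near the background and is not a result about the family. The median log2 fold change of the members was -0.04 and that of all rows -0.05. The median absolute log2 fold change was 0.121 over the members and 0.150 over all rows. The lower genes were Rab3d, Rab24, Rab13, Rab7l1, Rab32, Rab34, Rab6b, Rab5b, Rab30, Rab10 and Rab6a, and the higher genes were Rab40c, Rab22a and Rab11b. In 6 members all knockdown libraries lay below all control libraries (Rab3d, Rab24, Rab13, Rab10, Rab5b and Rab6a), which is 16.2% of the members where 13.9% of all rows had no overlap in that direction. No member lay wholly above control, where 5.51% of all rows did, and in either direction 19.5% of all rows had no overlap.

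How far these calls reach depends on size. Against a minimum fold of 1.2, limma called Rab3d and Rab24 lower, 5.41% of the members, where 3.69% of all rows were lower by this test, 2.13% higher and 5.82% called in either direction. It called 0 members higher, and 0 higher members had a p below 0.05 in that test before adjustment. The deposited values also hold a term that differs between the arms in part of the rows, called the arm term below. It was seen in low rows (means below 0.5 FPKM, values whole multiples of a smallest value within 0.02), where the FPKM that 1 read is worth can be read off. Between the arms this worth differed by over 0.02 in log2 in 312 of 1085 rows (28.8%), with a 90th percentile of 0.214, and within the arms in 2 of 458 and 3 of 501 rows. The size of the arm term in rows of higher level was not measured. Of the 14 called members 10 had a fold change larger than 0.214, and Rab10, Rab6a, Rab11b and Rab30 did not. The rows of short RNAs took 64.56 to 68.93% of the summed FPKM in control and 68.11 to 69.36% in knockdown libraries, and the part of this difference in the fold changes was not tested. Other scalings moved the balance: the split of 11 lower and 3 higher became 10 and 4 with each library centred on its median, 9 and 6 with quantile normalization, and 7 and 6 after rescaling without mitochondrial and short-RNA rows. Over all rows it was 3648 lower and 1712 higher as deposited, 3146 and 2307 centred, 3252 and 2172 with quantile normalization, and 2553 and 2349 after rescaling. Lower and higher counts after rescaling were thus close both over all rows and among the Rab genes. In the authors' deposited table none of the members (0 of 37) was marked significant, 3 members (Rab13, Rab32 and Rab3d) had a p-value below 0.05, and 1.83% of the tested rows were marked significant.

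**Figure D2:**
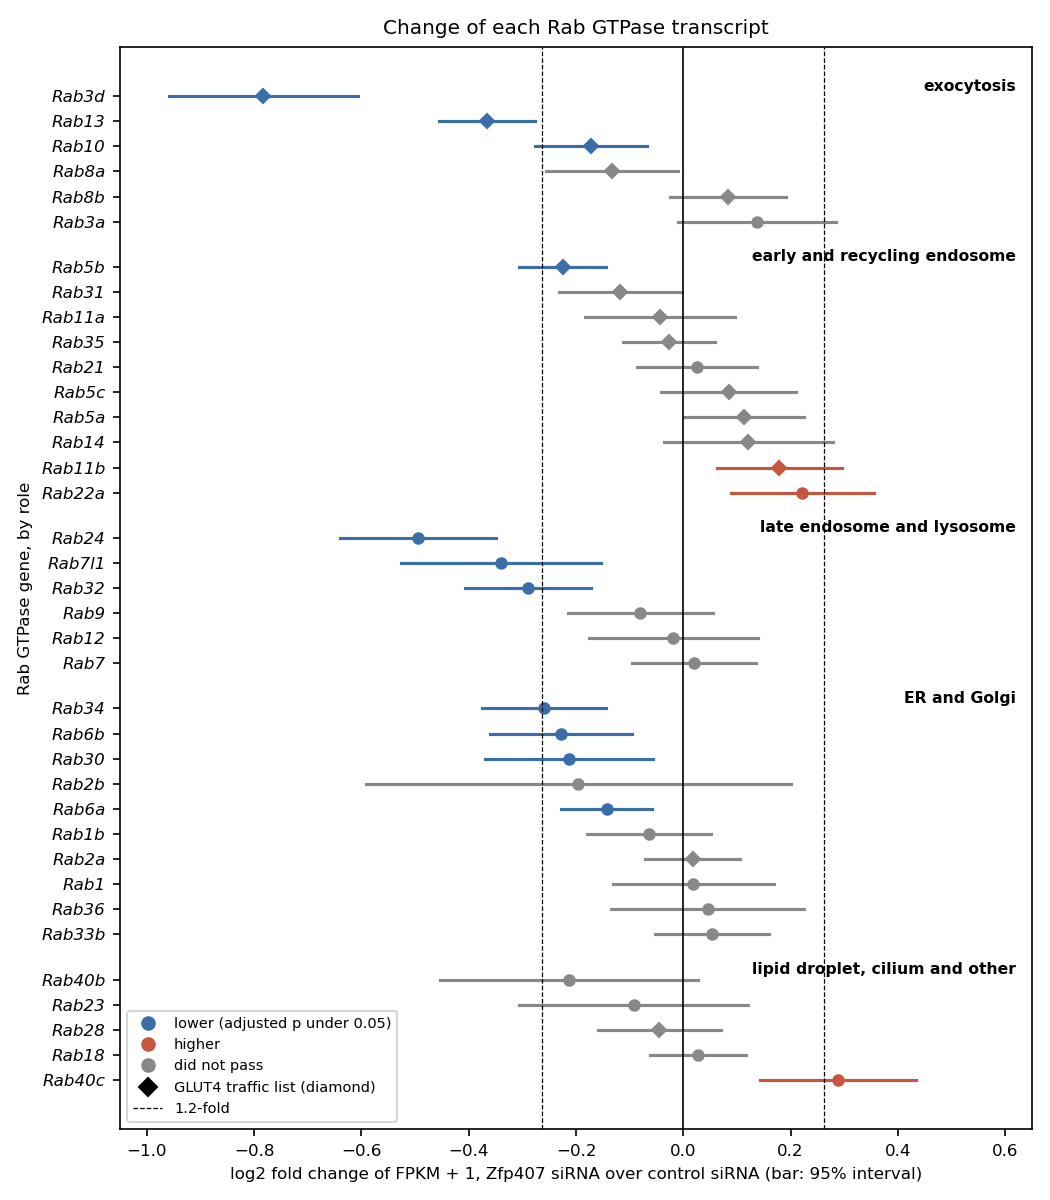
Fitted log2 fold change of FPKM + 1 (Zfp407 siRNA over control siRNA) with its 95% interval for each Rab gene, grouped by role, with dashed lines at 1.2-fold. Blue and red points passed the test and grey points did not; only the intervals of Rab3d, Rab24 and Rab13 lie wholly beyond the lower 1.2-fold line.

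The promoters of 5 members are shown because these genes carry the largest changes in either direction or, in the case of Rab10, the link to GLUT4. They run from 250 bases before to 50 bases after the RefSeq start, in GRCm38.p6, 5′ to 3′ on the gene's strand: Rab3d chr9:21918134-21918433 (minus strand), Rab13 chr3:90213465-90213764 (plus), Rab10 chr12:3309920-3310219 (minus), Rab24 chr13:55321931-55322230 (minus) and Rab40c chr17:25919665-25919964 (minus). Capitals mark letters that match GGGCGG (the GC box bound by Sp1-type factors), the CCAAT box, the E-box CACGTG or the ETS motif CCGGAAGT on either strand.
Rab3d: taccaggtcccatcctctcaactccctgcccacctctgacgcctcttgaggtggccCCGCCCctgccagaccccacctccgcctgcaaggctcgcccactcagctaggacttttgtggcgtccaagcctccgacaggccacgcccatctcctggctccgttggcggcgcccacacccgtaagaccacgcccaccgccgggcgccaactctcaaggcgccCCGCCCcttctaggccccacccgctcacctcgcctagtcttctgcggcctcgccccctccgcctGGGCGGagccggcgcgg
Rab13: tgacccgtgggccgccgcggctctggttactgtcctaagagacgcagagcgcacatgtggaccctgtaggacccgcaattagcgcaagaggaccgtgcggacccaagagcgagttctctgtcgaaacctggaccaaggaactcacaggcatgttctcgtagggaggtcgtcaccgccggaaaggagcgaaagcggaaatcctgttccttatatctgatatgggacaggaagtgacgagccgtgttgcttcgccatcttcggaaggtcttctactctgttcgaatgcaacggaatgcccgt
Rab10: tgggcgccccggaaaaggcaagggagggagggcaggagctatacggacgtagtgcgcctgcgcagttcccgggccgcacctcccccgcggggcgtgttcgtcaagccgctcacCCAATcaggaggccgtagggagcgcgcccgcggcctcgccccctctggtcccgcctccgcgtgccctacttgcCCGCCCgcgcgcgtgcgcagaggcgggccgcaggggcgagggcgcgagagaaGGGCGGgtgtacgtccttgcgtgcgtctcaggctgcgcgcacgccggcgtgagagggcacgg
Rab24: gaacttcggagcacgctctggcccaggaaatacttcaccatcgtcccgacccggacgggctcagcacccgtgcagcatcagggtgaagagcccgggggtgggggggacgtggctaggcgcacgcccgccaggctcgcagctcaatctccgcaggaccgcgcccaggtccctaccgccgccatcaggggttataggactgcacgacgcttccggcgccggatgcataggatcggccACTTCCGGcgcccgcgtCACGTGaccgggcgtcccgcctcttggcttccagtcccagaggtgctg
Rab40c: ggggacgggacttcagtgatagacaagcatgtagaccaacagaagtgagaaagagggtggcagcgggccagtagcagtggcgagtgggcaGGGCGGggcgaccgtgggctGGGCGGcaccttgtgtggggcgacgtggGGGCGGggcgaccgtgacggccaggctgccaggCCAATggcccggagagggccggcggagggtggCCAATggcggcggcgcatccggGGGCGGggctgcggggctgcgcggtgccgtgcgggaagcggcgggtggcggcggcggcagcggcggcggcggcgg

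Rab3d holds 3 matches to GGGCGG, Rab40c holds 4 to GGGCGG and 2 to CCAAT, and Rab10 holds 2 to GGGCGG and 1 to CCAAT. Rab24 holds 1 CACGTG and 1 CCGGAAGT, and the Rab13 window holds none of these letters. Of the members 33 matched a RefSeq promoter. GGGCGG stood in 24 of the 33 (72.7%) and in 35.9% of all 32544 promoters of the same length, CCAAT in 18 (54.5% and 37.4%), TATAAA in 1 (3.03% and 13.6%), CACGTG in 4 (12.1% and 7.17%), CCGGAAGT in 2 (6.06% and 3.92%) and TGACGTCA in 1 (3.03% and 1.80%). The NRF1 palindrome stood in 0 of 33 (0.974% of all promoters), as did the DR1 element of nuclear receptors such as PPARG with RXR (0.0399%). The GC content had a median of 63.3% over the members and of 53.0% over all promoters. By direction, GGGCGG stood in 4 of the 10 lower genes with a promoter and in 2 of the 3 higher genes, and CCAAT in 3 of 10 and in 3 of 3. The members passed a minimum level, while all promoters were taken without one, so the comparison is not between genes of like expression. These are matches of letters in a fixed window, a description only.

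The exocytosis Rabs steer vesicles to fusion with the plasma membrane, and 3 of 6 tested were lower, 0 higher and 3 did not pass (50% called, against 36.4% of all rows, in a group of 6), with a median log2 fold change of -0.15. Rab3d, a Rab of regulated secretory granules, had the largest change of any member. Its transcript ran from 12.8 through a median of 13.8 to 15.9 FPKM in control and from 6.1 through 7.77 to 9.2 FPKM in knockdown libraries. Every knockdown library was below every control library. The mean went from 13.9 ± 1.19 to 7.71 ± 1.05 FPKM (SD, n = 6 each; exact permutation p = 0.00216, the smallest that 6 against 6 allows), a fall of 44.7%, with a log2 fold change of -0.78 (SE 0.08, limma adjusted p = 1.7e-05, and 8.1e-04 against the minimum fold). The gene lies on chromosome 9 from 21907310 to 21918192. Its call held under every alternative run, with adjusted p from 1.5e-05 to 7.9e-05 apart from the minimum fold. The authors' deposited table gives Rab3d a log2 fold change of -0.86, a p-value of 0.0455 and a q-value of 0.738.

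Rab13, known from epithelial junction traffic and from GLUT4 exocytosis in muscle cells, ran from 20.8 through 22.2 to 23.9 FPKM in control and from 15.7 through 17.3 to 18.02 FPKM in knockdown libraries. The arms did not overlap, and both were narrow. Its log2 fold change came to -0.37 (SE 0.04, limma adjusted p = 3.3e-05), a fall of 23.4%, and did not pass against the minimum fold (limma adjusted p = 0.163). Rab13 lies on chromosome 3 from 90213695 to 90226385. The authors' deposited table gives it a p-value of 0.0127 and a q-value of 0.345.

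Rab10, the main Tbc1d4 substrate of GLUT4 exocytosis in adipocytes, ran from 49.7 through 50.1 to 52.2 FPKM in control and from 40.8 through 44.3 to 49.1 FPKM in knockdown libraries. All knockdown libraries were below all control libraries, by a narrow gap at the closest pair. Its log2 fold change came to -0.17 (SE 0.05, limma adjusted p = 0.0141), a fall of 11.3%. That is smaller than the 90th percentile of the arm term in low rows (0.214). The call of Rab10 was lost with quantile normalization (limma adjusted p = 0.0506) and after rescaling (limma adjusted p = 0.0751), within a range of 0.00531 to 0.0751 over the alternatives other than the minimum fold, which also stands apart from the ranges below. Rab10 lies on chromosome 12 from 3235504 to 3309969, a locus that also carries 1700012B15Rik.

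Rab8a, the related Rab of GLUT4 exocytosis in muscle cells, ran from 77.0 through 82.7 to 92.2 FPKM in control and from 72.0 through 75.9 to 84.9 FPKM in knockdown libraries. Its log2 fold change of -0.13 (95% interval -0.26 to -0.01) did not pass (limma adjusted p = 0.0876), although 4 of 6 knockdown libraries were below the lowest control library. It passed when knockdown library 5 was left out (-0.16, limma adjusted p = 0.0391), in a range of 0.0391 to 0.216 over the alternatives. Its paralogue Rab8b ran from 7.29 through 8.07 to 8.74 FPKM in control and from 7.97 through 8.51 to 9.51 FPKM in knockdown libraries. The arms of Rab8b overlapped and its log2 fold change was 0.08 (limma adjusted p = 0.213), passing after rescaling alone (limma adjusted p = 0.0297, in a range up to 0.390). Rab3a, the synaptic vesicle Rab, averaged 18.7 ± 2.17 and 20.6 ± 1.03 FPKM (SD, n = 6 each), with a log2 fold change of 0.14 that did not pass (limma adjusted p = 0.133). It passed without control library 1 (limma adjusted p = 0.0418) and with quantile normalization (limma adjusted p = 0.0463), in a range of 0.0418 to 0.258.

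The early and recycling endosome Rabs receive endocytosed cargo and return it to the surface. Of 10 tested, 1 was lower, 2 were higher and 7 did not pass (30% called, against 36.4% of all rows), with a median log2 fold change of 0.05. The 3 Rab5 genes, which control fusion of early endosomes, did not move alike. Rab5b ran from 55.7 through 57.3 to 59.2 FPKM in control and from 46.0 through 48.3 to 52.5 FPKM in knockdown libraries. The arms did not overlap, and its log2 fold change came to -0.22 (SE 0.04, limma adjusted p = 6.2e-04), a fall of 14.6%. Of the 50-base windows of the Rab5b transcript in GENCODE M21, 13.0% also stand in a transcript of another gene, Gm13991, so reads there may be shared.

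Rab5a ran from 54.1 through 56.8 to 60.5 FPKM in control and from 57.7 through 61.1 to 67.8 FPKM in knockdown libraries. All 6 knockdown libraries were above the control mean but only 3 above the highest control library, and the log2 fold change of 0.11 did not pass (limma adjusted p = 0.105). It passed when each library was centred on its median (0.15, limma adjusted p = 0.0202), with quantile normalization (0.16, limma adjusted p = 0.00631) and after rescaling (0.17, limma adjusted p = 0.00554), in a range of 0.00554 to 0.202 over the alternatives. Rab5c ran from 93.8 through 102 to 109 FPKM in control and from 93.9 through 109.8 to 118 FPKM in knockdown libraries, which overlapped (log2 fold change 0.08, limma adjusted p = 0.282).

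Rab11b, a Rab of the recycling endosome, was higher. It ran from 92.1 through 97.1 to 105 FPKM in control and from 99.4 through 112 to 123 FPKM in knockdown libraries. Of the knockdown libraries 5 of 6 exceeded the highest control library, and its log2 fold change came to 0.18 (SE 0.05, limma adjusted p = 0.01998). That is below the 90th percentile of the arm term in low rows (0.214). Of the 50-base windows of Rab11b 9.75% stand also in a transcript of another gene, the pseudogene Rab11b-ps2. Rab11a, the more abundant copy, ran from 138 through 164 to 169.8 FPKM in control and from 135 through 154 to 169 FPKM in knockdown libraries. Its arms overlapped over nearly their whole range (log2 fold change -0.04, limma adjusted p = 0.634).

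Rab22a, which sorts cargo out of early endosomes, ran from 22.2 through 25.1 to 28.9 FPKM in control and from 27.9 through 29.6 to 32.5 FPKM in knockdown libraries. Of the knockdown libraries 5 of 6 exceeded the highest control library, and its log2 fold change came to 0.22 (SE 0.06, limma adjusted p = 0.0138). Rab14, placed on endosomes through which GLUT4 is sorted, ran from 117 through 142 to 151 FPKM in control and from 129.9 through 151 to 163 FPKM in knockdown libraries. Its log2 fold change of 0.12 did not pass (limma adjusted p = 0.214), though it did with quantile normalization (limma adjusted p = 0.0455) and after rescaling (limma adjusted p = 0.0319), in a range of 0.0319 to 0.397 over the alternatives.

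Rab31, a Rab5 relative linked to keeping GLUT4 inside unstimulated adipocytes, ran from 14.6 through 15.9 to 16.9 FPKM in control and from 12.7 through 14.96 to 15.5 FPKM in knockdown libraries. In Rab31 none of the 6 knockdown libraries reached the control mean, and the log2 fold change of -0.12 did not pass (limma adjusted p = 0.101). Rab35, a Rab of fast endosomal recycling, ran from 42.6 through 43.7 to 44.7 FPKM in control and from 39.8 through 42.6 to 46.5 FPKM in knockdown libraries, the control range lying inside the knockdown range (log2 fold change -0.03, limma adjusted p = 0.624). Rab21, a Rab of integrin endocytosis, averaged 32.6 ± 0.630 and 33.2 ± 2.91 FPKM (SD, n = 6 each; log2 fold change 0.03, limma adjusted p = 0.731).

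**Figure D3:**
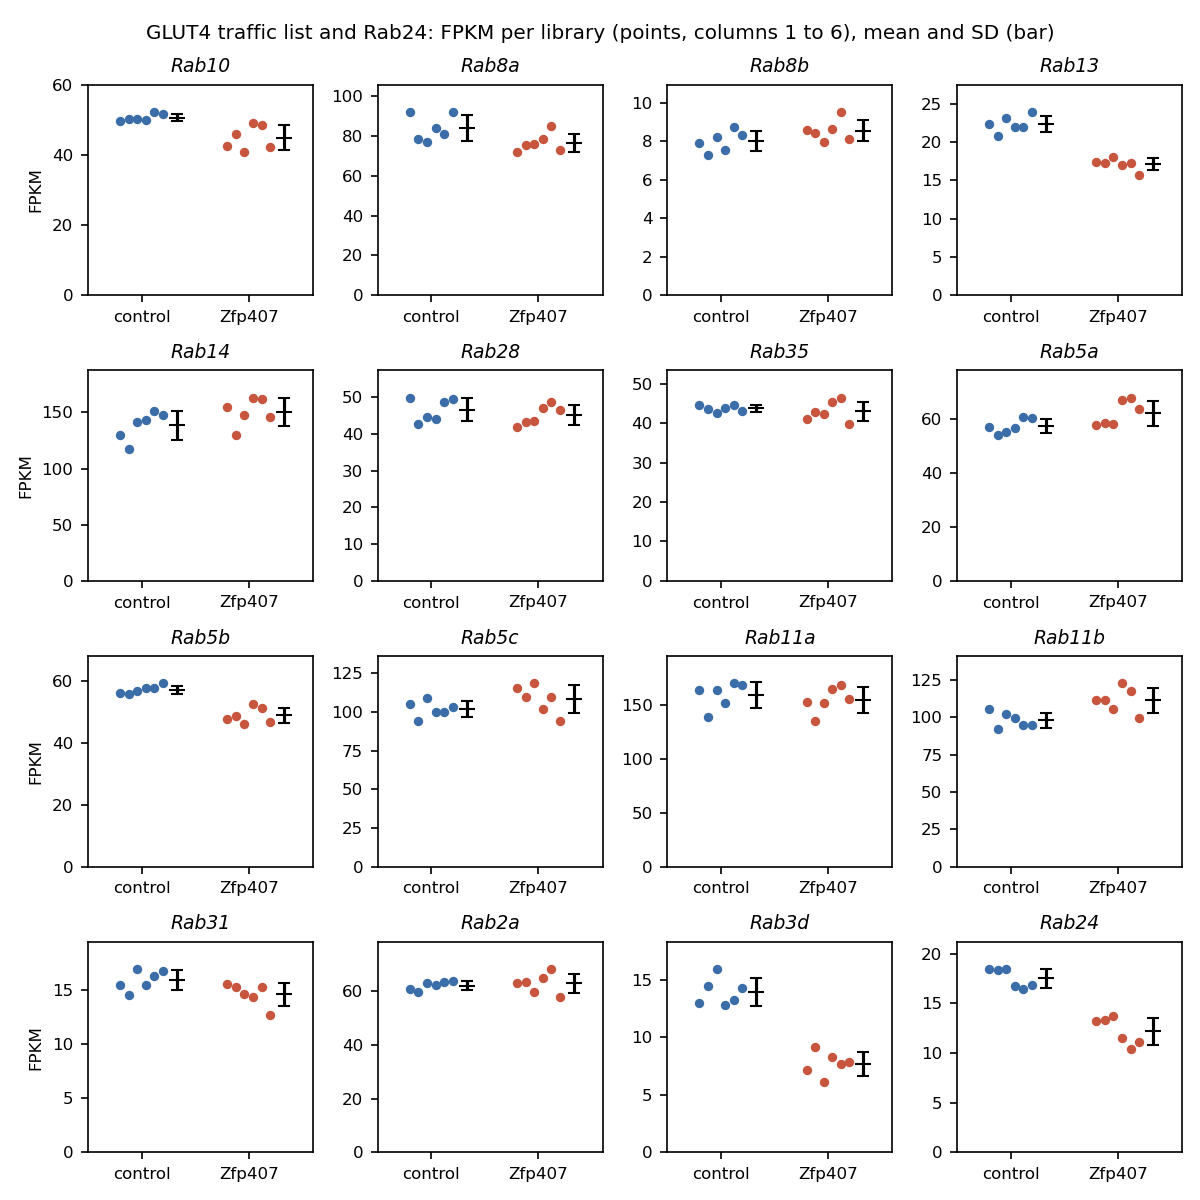
FPKM in each library, from column 1 to 6, of the 15 measured Rab genes of the GLUT4 traffic list and of Rab24, with the mean and SD beside the points, axes from 0. Rab3d, Rab13, Rab5b, Rab10 and Rab24 are lower without overlap in the 6 Zfp407 siRNA libraries, while most other panels overlap.

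The Rabs known for GLUT4 traffic cut across these roles. Of the 15 of that list measured in rows of their own, 4 were lower (Rab3d, Rab13, Rab5b and Rab10), 1 was higher (Rab11b) and 10 did not pass. That is 33.3% called, below the 36.4% of all rows, and the median log2 fold change of the list was -0.04. The list was drawn up with earlier results of these data known. Its remaining members are Rab2a, found on GLUT4 vesicles and in ER-to-Golgi traffic, and Rab28, linked to GLUT4 traffic and known from cilia. Rab2a ran from 59.6 through 62.6 to 63.7 FPKM in control and from 58.0 through 63.3 to 68.2 FPKM in knockdown libraries (log2 fold change 0.02, limma adjusted p = 0.769). Rab28 ran from 42.8 through 46.7 to 49.9 FPKM in control and from 41.8 through 44.95 to 48.8 FPKM in knockdown libraries (log2 fold change -0.04, limma adjusted p = 0.540). Rab4b, another Rab of GLUT4 recycling, was measured only in a row shared with Mia1 and RP24-68L4.1, which averaged 17.7 ± 1.88 and 14.9 ± 1.46 FPKM (SD, n = 6 each; log2 fold change -0.23, limma adjusted p = 0.0273), a value that cannot be given to Rab4b alone.

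The late endosome and lysosome Rabs hold 3 of 6 lower, 0 higher and 3 that did not pass (again 50% of a group of 6, against 36.4% of all rows), with a median log2 fold change of -0.19. Rab24, a Rab tied to autophagosomes, had the second largest change of the family. Control libraries 1 to 6 gave 18.4, 18.4, 18.4, 16.7, 16.4 and 16.8 FPKM, and knockdown libraries 1 to 6 gave 13.2, 13.3, 13.7, 11.5, 10.4 and 11.1 FPKM. The arms did not overlap, and in both arms the libraries numbered 1 to 3 were above those numbered 4 to 6. The mean went from 17.5 ± 0.969 to 12.2 ± 1.38 FPKM (SD, n = 6 each; exact permutation p = 0.00216), a fall of 30.4%, with a log2 fold change of -0.49 (SE 0.07, limma adjusted p = 1.5e-04, and 0.0419 against the minimum fold). The authors' deposited table gives Rab24 a p-value of 0.350 and a q-value of 0.99999. Its locus, chromosome 13 from 55319223 to 55362852, also holds Lman2, Mxd3 and Prelid1, so that the authors' estimation had to divide reads between overlapping genes. Loci shared with other rows hold 11 of the 37 members, among them the called genes Rab10, Rab6a, Rab11b, Rab30 and Rab40c.

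Rab7l1, a partner of the kinase LRRK2 at the Golgi and lysosome, ran from 5.55 through 7.04 to 7.67 FPKM in control and from 4.26 through 5.36 to 6.01 FPKM in knockdown libraries. Only control library 2 fell into the range of the knockdown arm, and its log2 fold change came to -0.34 (SE 0.09, limma adjusted p = 0.00825). Rab32, which brings cargo to melanosomes and related lysosomal organelles, ran from 10.9 through 12.6 to 13.6 FPKM in control and from 9.37 through 9.87 to 11.0 FPKM in knockdown libraries. Of the knockdown libraries 5 of 6 were below the lowest control library, and its log2 fold change came to -0.29 (SE 0.05, limma adjusted p = 0.00133). The authors' deposited table gives Rab32 a p-value of 0.0379 and a q-value of 0.665. Rab9, which returns cargo from late endosomes to the Golgi, and Rab12, which sends receptors to lysosomes, had log2 fold changes of -0.08 and -0.02 that did not pass (limma adjusted p = 0.340 and 0.860).

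The ER and Golgi Rabs include 4 of 10 lower, 0 higher and 6 that did not pass (40.0% called, near the 36.4% of all rows), with a median log2 fold change of -0.10. Rab34, a Golgi and macropinosome Rab that also acts in ciliogenesis, ran from 123 through 137 to 148 FPKM in control and from 104 through 114 to 123 FPKM in knockdown libraries. Of the knockdown libraries 5 of 6 were below the lowest control library, and its log2 fold change came to -0.26 (SE 0.05, limma adjusted p = 0.00239). Both Rab6 genes, which act in traffic within and out of the Golgi, were lower. Rab6a ran from 46.1 through 47.2 to 49.0 FPKM in control and from 39.7 through 43.9 to 45.2 FPKM in knockdown libraries without overlap (log2 fold change -0.14, limma adjusted p = 0.0131). That change is below the 90th percentile of the arm term in low rows (0.214). The call of Rab6a was lost with quantile normalization (limma adjusted p = 0.122) and after rescaling (limma adjusted p = 0.149), in a range of 0.00911 to 0.149 over the alternatives.

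Rab6b ran from 6.15 through 6.51 to 6.81 FPKM in control and from 4.71 through 5.59 to 6.33 FPKM in knockdown libraries. The arms overlapped at 1 knockdown library, its log2 fold change came to -0.23 (limma adjusted p = 0.0117), and the call was lost after rescaling (limma adjusted p = 0.0571, the highest of a range from 0.00273 over the alternatives). Rab30, a Golgi Rab, ran from 3.62 through 4.10 to 4.72 FPKM in control and from 2.93 through 3.53 to 3.86 FPKM in knockdown libraries. The arms of Rab30 overlapped. Its log2 fold change of -0.21 was near the 90th percentile of the arm term and passed narrowly (limma adjusted p = 0.0350). Its call was lost when control library 3, 5 or 6 or knockdown library 2, 4 or 6 was left out, and with no filter on low values, with centring and after rescaling, in a range of limma adjusted p from 0.0234 to 0.0827. The authors' deposited table marks the test of Rab30 as failed. Among the Golgi Rabs that did not pass, Rab1b, Rab33b, Rab36 and Rab2b had log2 fold changes of -0.06, 0.05, 0.05 and -0.20. The interval of Rab2b was wide, from -0.59 to 0.20, and its control libraries alone ran from 13.6 to 26.2 FPKM.

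Of the 5 remaining Rabs 1 was higher and 4 did not pass (20% called, against 36.4% of all rows). Rab40c, which joins a ubiquitin ligase through its SOCS box, ran from 11.8 through 13.6 to 16.1 FPKM in control and from 15.6 through 16.9 to 18.6 FPKM in knockdown libraries. The highest control library reached into the knockdown range, and its log2 fold change came to 0.29 (SE 0.07, limma adjusted p = 0.00517), a rise of 23.4%. The locus of Rab40c carries 6 rows of overlapping genes, Pigq and Nhlrc4 among them. Rab40b averaged 7.07 ± 1.204 and 5.95 ± 0.932 FPKM (SD, n = 6 each; log2 fold change -0.21, limma adjusted p = 0.153). Rab18, the lipid droplet Rab, averaged 105 ± 5.45 and 107 ± 4.17 FPKM (SD, n = 6 each; log2 fold change 0.03, 95% interval -0.06 to 0.12, limma adjusted p = 0.640). Rab23, a negative regulator of Hedgehog signalling, had a log2 fold change of -0.09 (limma adjusted p = 0.492).

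To set related copies against each other, the ratio of FPKM + 1 within 10 pairs of the same number was compared between the arms, with an exact permutation test of 6 against 6 on its log2 value and Benjamini-Hochberg adjustment over the pairs. The pairs were tested after the values of the single genes had been seen, and the 3 Rab5 pairs share genes. The ratios carry the changes of the single genes given above, such as the log2 fold change of -0.78 of Rab3d. They are therefore not separate evidence. No share of passing ratios was computed for pairs of other rows. The ratio cancels any scaling of a whole library as far as the added 1 FPKM allows. The arm term was seen in part of the rows only, so a ratio of different rows does not cancel it. Ratio changes near its 90th percentile in low rows (0.214) carry the same limit as the single genes. Rab3a over Rab3d rose by 0.92 on the log2 scale, from 1.21 to 1.68 in the control libraries to 2.09 to 3.26 in the knockdown libraries as a plain FPKM ratio (exact p = 0.00216, adjusted 0.00722). Rab5a over Rab5b rose by 0.34, from plain ratios of 0.969 to 1.05 in control to 1.203 to 1.36 in knockdown libraries (exact p = 0.00216, adjusted 0.00722). The control libraries thus held nearly equal levels of both genes, and every knockdown library more Rab5a than Rab5b. Rab5b over Rab5c fell by 0.31 (exact p = 0.00216, adjusted 0.00722).

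Rab8a over Rab8b fell by 0.22, from plain ratios of 9.29 to 11.6 in control to 8.40 to 9.54 in knockdown libraries (exact p = 0.00649, adjusted 0.0162). Rab11a over Rab11b fell by 0.22 (exact p = 0.00866, adjusted 0.0173), and Rab40b over Rab40c fell by 0.50 (exact p = 0.0108, adjusted 0.0180). The ratios Rab6a over Rab6b, Rab2a over Rab2b, Rab1 over Rab1b and Rab5a over Rab5c did not pass, with differences of 0.08, 0.21, 0.08 and 0.03 and exact p = 0.0758, 0.284, 0.426 and 0.751.

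**Figure D4:**
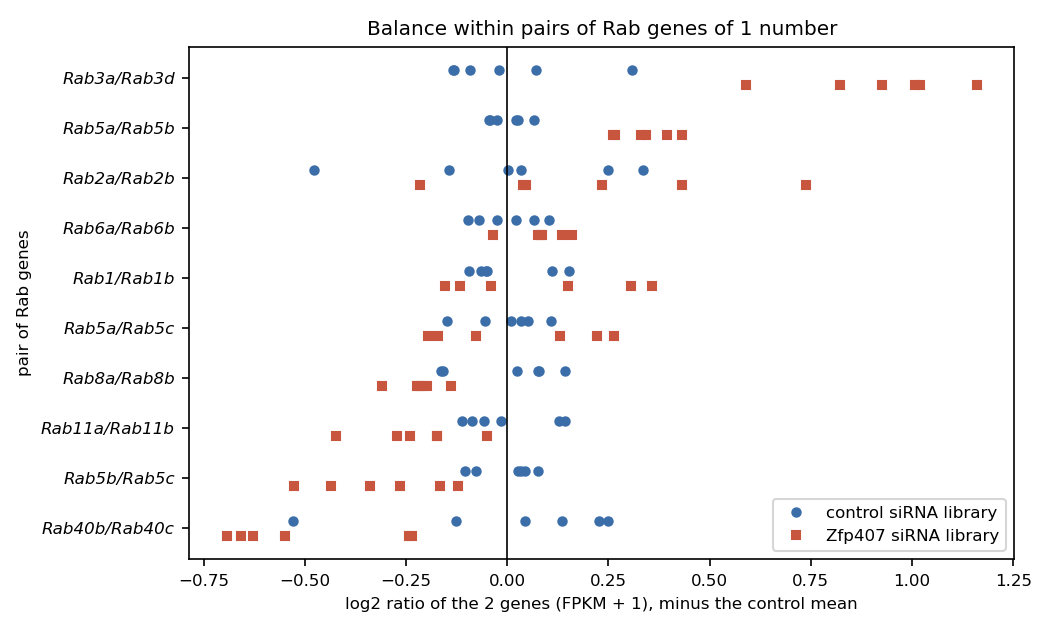
Log2 ratio of FPKM + 1 within each pair of Rab genes of the same number, minus the mean of the control libraries, in each control (circles) and Zfp407 siRNA (squares) library. The arms are apart for Rab3a/Rab3d, Rab5a/Rab5b and Rab5b/Rab5c and overlap for Rab5a/Rab5c and Rab1/Rab1b.

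The proteins that switch Rabs on and off or act on their behalf were tallied from lists of GEFs, GAPs and effectors. Of 35 GEFs 8 were lower and 2 higher (28.6% called, median log2 fold change -0.06), of 31 GAPs 11 were lower and 1 higher (38.7%, median -0.13), and of 45 effectors 17 were lower and 1 higher (40.0%, median -0.11). These shares lie on both sides of the 36.4% of all rows. Of all rows 24.8% were lower and 11.6% higher. The balance of lower to higher calls leaned further to lower in each list than over all rows.

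Around Rab10, the GAP Tbc1d4 ran from 9.72 through 12.6 to 14.2 FPKM in control and from 6.54 through 8.19 to 10.5 FPKM in knockdown libraries. Its knockdown libraries 1 to 3 gave 6.54, 7.41 and 7.29 FPKM, and 4 to 6 gave 10.4, 10.5 and 8.98 FPKM. Of its knockdown libraries 4 of 6 were below the lowest control library, and its log2 fold change came to -0.52 (SE 0.12, limma adjusted p = 0.00454, and 0.262 against the minimum fold). Tbc1d1, its relative, ran from 10.4 through 11.95 to 12.3 FPKM in control and from 8.48 through 9.40 to 11.3 FPKM in knockdown libraries (log2 fold change -0.26, limma adjusted p = 0.00596). The Rab10 GEF Dennd4c did not pass, at a log2 fold change of -0.01 (95% interval -0.16 to 0.15, limma adjusted p = 0.962), nor did the Rab8 GEF Rab3ip (log2 fold change -0.09, limma adjusted p = 0.256). The motor Myo5a, an effector of Rab10, averaged 42.3 ± 3.20 and 36.3 ± 3.88 FPKM (SD, n = 6 each; log2 fold change -0.22, limma adjusted p = 0.0315). The exocyst subunit Exoc6 did not pass (log2 fold change -0.20, limma adjusted p = 0.0821).

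The largest changes among the other regulators were all toward lower levels. Ehbp1l1, an effector of Rab8 and Rab10, averaged 27.3 ± 1.55 and 16.6 ± 1.48 FPKM (SD, n = 6 each; log2 fold change -0.69, limma adjusted p = 3.2e-06) without overlap. Then came the GAPs Tbc1d8b (-0.57) and Grtp1 (-0.51), the TRAPP subunit Trappc9 (-0.50), the Rab7 effector Fyco1 (-0.43) and Mical3 (-0.41), with limma adjusted p of 0.00246, 1.1e-04, 3.9e-05, 4.4e-04 and 2.8e-04. In each of these 6, picked by size, all knockdown libraries were below all control libraries, as in 13.9% of all rows. Against the minimum fold Ehbp1l1, Trappc9 and Grtp1 were called. These are 1 each of 45 effectors, 35 GEFs and 31 GAPs, where 3.69% of all rows were lower by this test. In Tbc1d8b knockdown libraries 1 to 3 gave 9.47, 9.37 and 8.29 FPKM, and 4 to 6 gave 14.3, 13.95 and 12.2 FPKM. The 4 regulators that were higher were Tbc1d17, Sbf1, Rin2 and Bicd2, with log2 fold changes of 0.37, 0.27, 0.17 and 0.14.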

How the data were processed

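The FPKM values were made by the authors before deposit. Tools named in the submitters' processing notes, in no stated order, are Cufflinks 2.0.2, Bowtie2 2.0.0.7, TopHat2 2.0.5 and SAMtools 0.1.18.0. Genome build, gene annotation and use of strand are things not given in the sources used here. Among 18473 protein-coding rows shared with GENCODE M21 (GRCm38), 99.6% overlapped that gene, and coordinates are positions on that build. The deposited table also holds, per the file headers, the authors' log2 fold change, a test statistic (a score), p-value and q-value. FPKM keep no read totals, so depth is unknown in absolute terms. Low rows gave relative depths of 0.88 to 1.15 of control library 1, and summed FPKM ran from 2772929 to 3748488. The mitochondrial share was 22.66 to 25.3% in control and 19.42 to 32.76% in knockdown libraries. No 2 libraries held identical values.

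From the deposited FPKM, log2(FPKM + 1) was fitted with limma 3.58.1 in R 4.3.3 (lmFit, eBayes with intensity trend; treat for the minimum fold of 1.2), a fit tested on simulated data. Exact permutation tests used scipy 1.17.1. Groups came from the labels, with knockdown columns mapped to their arm only. Genes given in full were the GLUT4 traffic list, the 8 other called members of largest change and the 5 highest in control. Rab6a, the remaining called member, was added after its values were seen. From the regulator lists the named partners of these Rabs and the 6 largest called changes were given, and the 4 higher regulators were named after their values were seen. A further list is not reported here. Members and lists were chosen with earlier results of these data known. Alternatives were other pseudocounts (0.1 and 0.5), filters, scalings, no trend, the minimum fold and leaving out each library.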

Additional observations from a re-analysis of the deposited data

Results flagged for a closer look

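Among 74 sets of 6 libraries (each of the 37 Rab genes in each arm), 3 held a library far from the rest by Dixon's criterion at the 95% level, where chance gives about 1 in 20. Rab18 was 115.5 FPKM in knockdown library 5, the highest of its arm, and the next value was 106.8 FPKM. Rab23 was 13.1 FPKM in knockdown library 1, above the next value of 10.05 FPKM. Rab7l1 was 5.55 FPKM in control library 2, below the next value of 6.88 FPKM. The fold change of Rab7l1 kept its direction and its call when any single library was left out, and those of Rab18 and Rab23 passed in none of these fits.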

How the results depend on the processing

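As deposited, 11 Rab genes were lower and 3 higher, with a median log2 fold change of -0.04. Quantile normalization raised the number of higher members to 6. Rescaling without mitochondrial and short-RNA rows gave 7 lower, 6 higher and a median of 0.012, with 2553 lower and 2349 higher rows. Against a minimum fold of 1.2 there were 2 lower and 0 higher members, and 543 lower and 313 higher rows. Leaving out 1 library gave 10 to 12 lower and 3 to 4 higher members, a median of -0.07 to -0.03, and 3252 to 3882 lower and 1522 to 1754 higher rows. Of the 14 called members 13 kept their call in all of these leave-one-out fits (Rab30 did not), and 10 kept it under all alternatives other than the minimum fold. Over the members and all alternatives, 739 of 774 fold changes stayed on their side of the threshold, 26 lost a call and 9 gained one. The sign turned in 16 of them, in 8 genes (Rab1, Rab2a, Rab7, Rab11a, Rab12, Rab21, Rab28 and Rab35), all small and not past the threshold in either fit; no called fold change turned. The ratio Rab6a over Rab6b, which did not pass with all libraries, passed without control library 5 (0.10, exact p = 0.0325) and without knockdown library 4 (0.11, exact p = 0.0260). The column numbers of the knockdown arm are not the sample numbers of the labels, so the design gives no pairing. A fit with column number as replicate block, chosen after seeing the data, gave 12 lower and 4 higher members and 3824 lower and 1876 higher rows. Deviations of columns with the same number correlated at -0.049 to 0.15, and 3 of 6 columns in each arm correlated best with their own number. Read counts behind the low genes are unknown, and the arm term seen in low rows of the deposited values is not covered by the spread between libraries. The causes of these differences were not tested.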

Other observations

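Outside the members, the pseudogene Rab42-ps averaged 2.28 ± 0.303 FPKM (SD, n = 6) in control and 1.33 ± 0.120 FPKM (SD, n = 6) in knockdown libraries, without overlap (log2 fold change -0.49, limma adjusted p = 1.9e-04), and Rab9b-ps1 averaged 2.03 ± 0.165 and 1.80 ± 0.146 FPKM (log2 fold change -0.12, limma adjusted p = 0.118). The row shared by Isy1 and Rab43 averaged 40.1 ± 1.56 and 36.3 ± 2.39 FPKM (log2 fold change -0.14, limma adjusted p = 0.0323). The row shared by Rab26 and Traf7 averaged 62.2 ± 6.30 and 65.2 ± 3.66 FPKM (log2 fold change 0.07, limma adjusted p = 0.433). Of the 16 Rab genes below the minimum, 9 were listed at 0 in at least 1 library.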
